A study of Mus musculus with 12 samples.

Results

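The genes described here were 37 mouse genes of autophagy, chosen by symbol from the 55450 genes listed in the deposited gene tables. They fell into 6 roles: 6 genes of initiation, 7 of the phosphatidylinositol 3-kinase complex and its effectors, 8 of the conjugation system, 5 of the LC3 family, 7 cargo receptors and mitophagy genes, and 4 genes comprising the TFEB factors and lysosome membrane proteins. All 37 were among the 13636 genes that passed the filter on low counts. RNA was sequenced from CD8 T cells that came from pmel-1 mice, which carry a transgenic T cell receptor for a peptide of the melanocyte protein gp100, so most of these cells share a single specificity. The cells were activated with that peptide or with antibodies to CD3 and CD28, the labels not saying which, and then grew in IL-2 at 10 ng/ml for 4 days. There were 4 groups of 3 libraries, all of wild-type Ucp2 genotype: genipin, genipin with N-acetylcysteine (genipin+NAC), NAC alone, and vehicle, which was culture medium. Genipin is a plant compound used as an inhibitor of the mitochondrial carrier Ucp2, and NAC is a thiol antioxidant. The doses and the origin of the replicates, from separate mice or separate cultures, are not given in the labels used here, so the p-values reflect the spread between libraries alone, and that spread may be technical.

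Autophagy encloses cytoplasm in a double membrane and delivers it to the lysosome for breakdown. The ULK1 kinase complex starts the process, the Beclin 1 and VPS34 lipid kinase complex marks the growing membrane, and a ubiquitin-like conjugation system attaches proteins of the LC3 and GABARAP families to it. Cargo receptors link selected cargo, such as protein aggregates or damaged mitochondria, to those proteins, and the transcription factors TFEB and TFE3 switch on lysosome and autophagy genes through an E-box motif. In activated CD8 T cells autophagy is known for its part in survival and memory formation. The values below are RNA levels. They do not measure autophagic flux, and in these bulk samples fewer cells with a transcript and less transcript per cell cannot be told apart.

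Library totals ran from 20838894 to 31098648 expected counts. Markers of CD8 T cells were high in every library, with 9 of 9 genes above 1 TPM and a summed level of 4576 to 4658 TPM in genipin, 5138 to 5221 TPM in genipin+NAC, 4415 to 4488 TPM in NAC and 4165 to 4235 TPM in vehicle libraries. The lists for CD4 T cells, B cells, myeloid cells and red cells each summed to at most 3.05 TPM. The natural killer list of 3 genes summed to 47.5 to 48.0 TPM in genipin, 32.7 to 34.9 TPM in genipin+NAC, 18.3 to 18.8 TPM in NAC and 23.4 to 25.1 TPM in vehicle libraries. Most of that sum was Eomes, a factor that CD8 T cells also make, but Klrb1c and Ncr1 were highest in genipin too. Klrb1c averaged 5.25 TPM in genipin, 3.35 TPM in genipin+NAC, 1.01 TPM in NAC and 1.54 TPM in vehicle. Ncr1 averaged 1.98, 0.14, 0 and 0.06 TPM in the same order. The part of these markers in the autophagy results was not tested. The first genipin+NAC library stood apart from the other two of its group, with a chi-square per degree of freedom of 6.95 and 8.07 against them, while all other pairs within a group lay between 2.08 and 2.92. Counts for the genipin+NAC comparisons are therefore given with and without it.

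The E-box CACGTG, which TFEB and TFE3 bind, was searched on both strands in the 300 bases around gene starts (250 bases before and 50 after) of the RefSeq promoter table of build GRCm38.p6. Windows, 36 in all, were present for 31 of the 37 genes, and a gene counted when any of its windows held the motif. The motif occurred in 5 of these 31 genes (16.1%), against 8.09% of 27025 genes and 7.15% of 32851 windows in the table. These 5 windows are shown because they hold the letters that the TFEB factors read. In each, 200 bases are printed 5′ to 3′ on the gene's strand, ending 50 bases into the transcript, with every E-box in capitals. Lamp1 lies at chr8:13159011-13159210 (plus strand), Atg3 at chr16:45158679-45158878 (plus strand), Atg5 at chr10:44268189-44268388 (plus strand), Atg7 at chr6:114670946-114671145 (plus strand) and Atg14 at chr14:47568385-47568584 (minus strand). The RefSeq start lay 27999 bases inside the GENCODE gene for Atg7, 2215 bases inside it for Atg14 and 44 bases inside it for Atg3, and the windows of Atg7 and Atg14 do not reach the GENCODE start.
Lamp1: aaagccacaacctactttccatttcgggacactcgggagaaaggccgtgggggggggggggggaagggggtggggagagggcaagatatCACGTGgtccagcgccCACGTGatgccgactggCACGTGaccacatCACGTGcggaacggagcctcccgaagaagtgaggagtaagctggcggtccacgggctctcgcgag
Atg3: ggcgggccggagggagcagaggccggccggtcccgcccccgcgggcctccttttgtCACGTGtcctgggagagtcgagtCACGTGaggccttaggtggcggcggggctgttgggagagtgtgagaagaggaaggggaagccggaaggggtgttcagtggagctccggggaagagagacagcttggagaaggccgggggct
Atg5: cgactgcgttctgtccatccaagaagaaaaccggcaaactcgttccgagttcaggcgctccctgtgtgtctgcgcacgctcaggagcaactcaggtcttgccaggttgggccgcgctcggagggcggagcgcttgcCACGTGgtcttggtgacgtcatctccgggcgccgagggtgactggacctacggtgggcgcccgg
Atg7: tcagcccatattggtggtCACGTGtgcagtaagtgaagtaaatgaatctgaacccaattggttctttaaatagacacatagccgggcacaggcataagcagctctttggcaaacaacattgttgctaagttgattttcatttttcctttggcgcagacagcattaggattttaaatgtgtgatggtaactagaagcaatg
Atg14: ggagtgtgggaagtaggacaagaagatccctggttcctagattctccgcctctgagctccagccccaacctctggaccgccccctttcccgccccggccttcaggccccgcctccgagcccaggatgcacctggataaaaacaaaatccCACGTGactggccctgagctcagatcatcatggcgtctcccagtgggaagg

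Lamp1 held 4 E-boxes, beginning at positions -61, -45, -28 and -15 from the start of transcription, and Atg3 held a pair at -94 and -71. The longer palindrome TCACGTGA, which contains the E-box and is the core of the lysosomal CLEAR element, occurred at -72 in Atg3 and in no other of the 31 genes, and in 0.974% of all windows. The shorter core ACGTG of hypoxia-factor sites, which lies inside every E-box, occurred in 13 of the 31 genes (41.9%), against 21.8% of all genes in the table. The antioxidant element TGACNNNGC occurred in 4 genes (Ulk2, Atg13, Map1lc3b and Tax1bp1), against 14.0% of all genes. Neither the FOXO motif TGTTTAC nor the ATF4 motif TGATGNAA occurred in any window of the 31 genes, against 4.05% and 4.51% of all genes. Of the 5 genes with an E-box, Lamp1 was higher in genipin than in vehicle and the other 4 were not called in that comparison. In NAC against vehicle Lamp1, Atg3 and Atg7 were lower and Atg5 and Atg14 were not called. In genipin+NAC against genipin Lamp1, Atg3, Atg5 and Atg7 were lower and Atg14 was higher. Against vehicle genipin+NAC gave the same directions, with Atg3 not called. In genipin+NAC against NAC Atg7 and Atg14 were higher and the others were not called. That Atg7 call was lost in 3 of 21 other settings, among them leaving out genipin+NAC library 3. The Atg14 call was lost in 6 of 21, among them leaving out genipin+NAC library 1 or 2 or NAC library 1 or 2. Sqstm1 and Wipi1, which showed the largest rise and the largest fall among the 37 genes in genipin against vehicle, had none of these motifs in their windows. The start behind the Wipi1 window lay 578 bases inside the GENCODE gene, so that window does not reach the GENCODE start either, and that of Sqstm1 7 bases inside it. Their windows, at chr11:50210771-50210970 (minus strand) and chr11:109611340-109611539 (minus strand), are printed in the same way with the transcribed bases in capitals.
Sqstm1: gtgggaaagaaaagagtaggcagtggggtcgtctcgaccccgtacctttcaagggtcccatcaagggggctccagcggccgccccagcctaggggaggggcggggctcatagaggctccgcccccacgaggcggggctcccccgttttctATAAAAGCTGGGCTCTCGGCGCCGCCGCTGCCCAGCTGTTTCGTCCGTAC
Wipi1: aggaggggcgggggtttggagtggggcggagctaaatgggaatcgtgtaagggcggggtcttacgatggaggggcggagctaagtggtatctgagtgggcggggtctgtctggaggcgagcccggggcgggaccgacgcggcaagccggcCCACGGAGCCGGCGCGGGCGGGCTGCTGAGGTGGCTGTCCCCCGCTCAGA

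Levels were compared between genes in TPM, which corrects for length. Sqstm1, the receptor p62, was the most abundant of the 37, at 485, 477 and 502 TPM in genipin, 331, 348 and 352 TPM in genipin+NAC, 292, 289 and 304 TPM in NAC, and 271, 282 and 281 TPM in vehicle libraries. Gabarap, Tax1bp1, Lamp1 and Becn1 followed, with group means between 75.4 and 269 TPM. Wipi1 was the least abundant, with 0.84 to 3.77 TPM over the 12 libraries, and Optn, Atg10 and Atg14 also had group means below 7 TPM. TPM also moves with the rest of the transcriptome: over 9449 genes with at least 100 counts in every library the median TPM stood 0.15 log2 units above vehicle in genipin, 0.04 above it in genipin+NAC and 0.17 above it in NAC. Groups were therefore compared within a gene in CPM, that is counts put on a common scale by library totals with TMM factors.

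**Figure D1:**
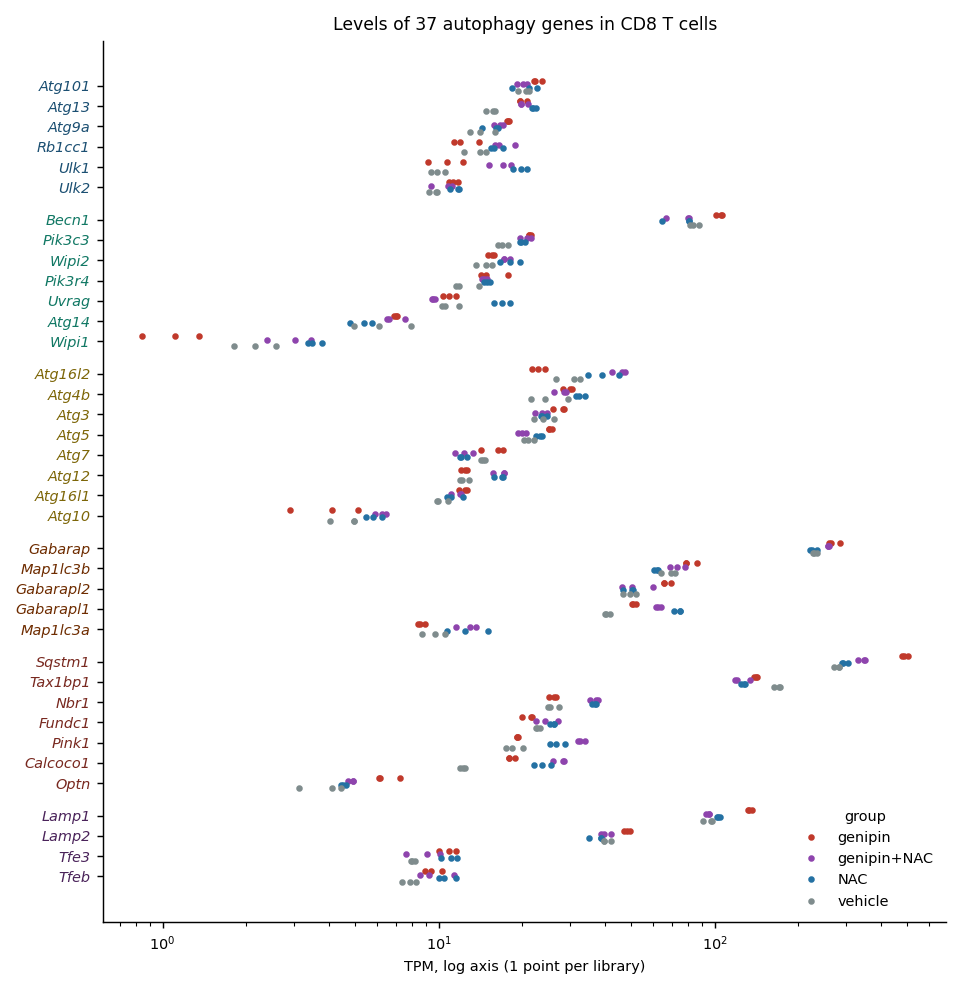
TPM of each of the 37 genes on a log axis, 1 point per library, with the groups stacked within a gene as genipin, genipin+NAC, NAC and vehicle from top to bottom and genes grouped by role. Sqstm1 reached 502 TPM while Wipi1 stayed below 4 TPM in every library.

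All 6 comparisons came from a single edgeR quasi-likelihood fit to the 13636 genes, and a gene was called at a Benjamini-Hochberg adjusted p under 0.05. In genipin against vehicle 16 of the 37 genes were higher, 10 were lower and 11 were not called, while 29.9% of all genes were called higher and 31% lower. At a change of at least 1.5-fold 3 members were called (Sqstm1 and Optn higher, Wipi1 lower), against 19.3% of all genes. In genipin+NAC against vehicle 17 members were higher and 6 lower, against 28.5% and 28.9% of all genes, and 3 passed 1.5-fold (Calcoco1, Pink1 and Ulk1, all higher), against 16.3%. In NAC against vehicle 12 members were higher and 10 lower, against 29.6% and 30% of all genes, and 4 passed 1.5-fold (Ulk1, Calcoco1 and Gabarapl1 higher, Tax1bp1 lower), against 19.3%.

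Adding NAC to genipin raised 14 members and lowered 11, where 35% of all genes rose and 34.3% fell, and 6 passed 1.5-fold, all of them higher (Wipi1, Pink1, Ulk1, Atg16l2, Calcoco1 and Atg10), against 28.9% of all genes in either direction. In genipin+NAC against NAC 19 members were higher and 4 lower, against 26.6% and 26.5% of all genes. None passed 1.5-fold in that comparison by edgeR, limma-voom or DESeq2, against 14.2% of all genes, although 23 were called without the fold limit and the largest change was -0.50 ± 0.05 on the log2 scale, in Uvrag. The median log2 fold change of the 37 genes was 0.07 in genipin against vehicle, 0.14 in genipin+NAC against vehicle, 0.01 in NAC against vehicle, -0.00 in genipin+NAC against genipin and 0.12 in genipin+NAC against NAC. The same medians over all genes lay between -0.01 and 0.01. Without the first genipin+NAC library, 18 members were higher and 7 lower in genipin+NAC against vehicle, 14 and 13 against genipin, and 17 and 4 against NAC.

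Of the 142 calls on members over the 6 comparisons, 86 held under every other setting tried and 56 were lost under at least 1. Of 143 member results, effective lengths as offsets weakened 33 and reversed 1, and the absence of normalization factors weakened 27, reversed 1 and brought 1 past the threshold. Leaving out the normalization factors raised the median of all genes by 0.12 log2 units in NAC against vehicle and lowered it by 0.14 in the interaction. Without normalization factors 19 members were higher and 5 lower in NAC against vehicle, and 10 were higher and 6 lower in genipin+NAC against NAC. Over all genes that setting gave 5615 higher and 2700 lower in NAC against vehicle, against 4041 and 4093 with scaling, and 2650 higher and 4733 lower in genipin+NAC against NAC, against 3632 and 3607 with scaling.

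**Figure D2:**
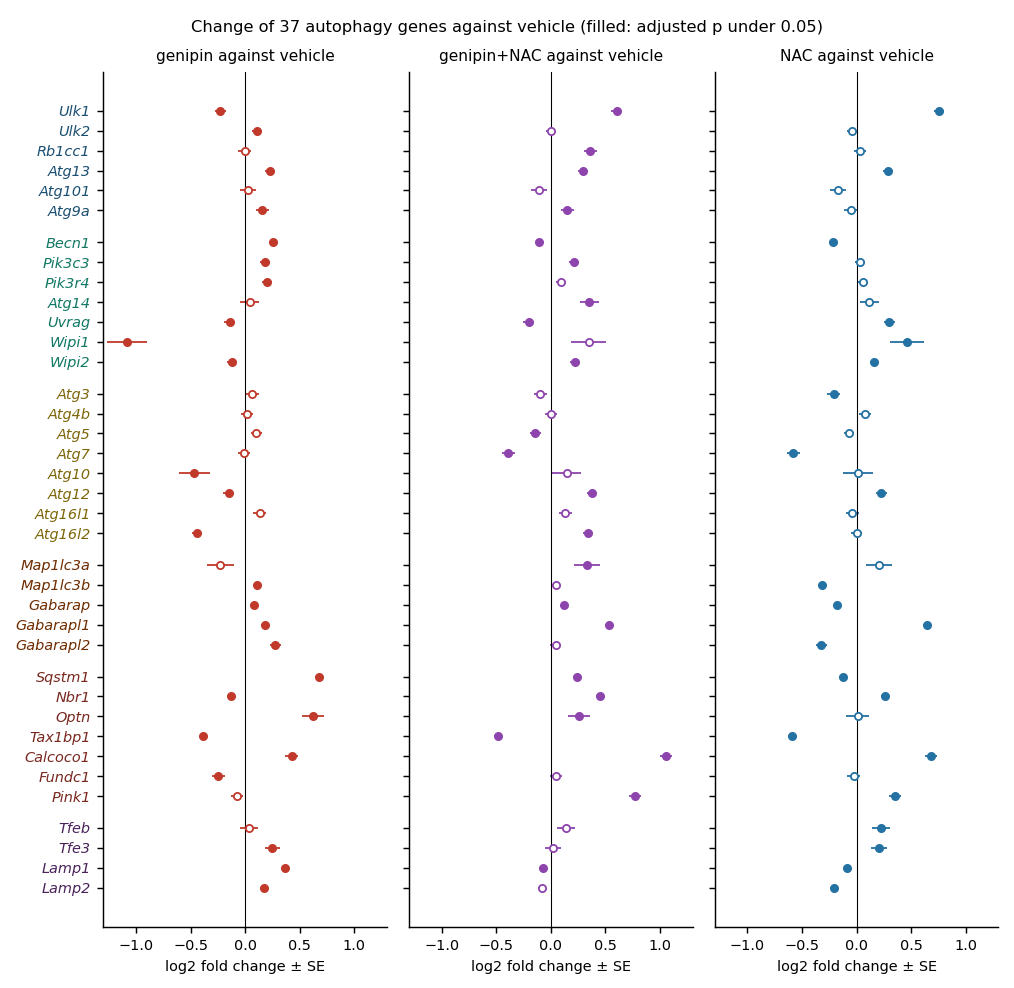
Log2 fold change with its SE for each of the 37 genes in genipin, genipin+NAC and NAC, each against vehicle, with genes grouped by role and filled points for an adjusted p under 0.05. Calcoco1 lay right of 0 and Tax1bp1 left of 0 in all 3 panels, Sqstm1 lay furthest right in genipin and Wipi1 furthest left.

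Among the initiation genes the largest movements were in Ulk1, the kinase that starts autophagosome formation (ENSMUSG00000029512.11, mm10 chromosome 5, 110784488 to 110810097, minus strand). Ulk1 stood at 30.3, 32.3 and 32.4 CPM in genipin, 53.6, 57.6 and 57.7 CPM in genipin+NAC, 61.0, 61.4 and 65.5 CPM in NAC, and 38.5, 36.6 and 36.2 CPM in vehicle libraries. The NAC and genipin+NAC libraries were all higher than every vehicle library, and the genipin libraries all lower. The log2 fold change was 0.76 ± 0.05 in NAC against vehicle (SE, adjusted p = 1.98e-11) and 0.60 ± 0.05 in genipin+NAC against vehicle (adjusted p = 8.51e-10). Ulk1 was lower in genipin than in vehicle by a smaller amount, -0.23 ± 0.05 (adjusted p = 0.000627), and the call ended when effective lengths entered as offsets, with a log2 fold change of -0.03.

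Rb1cc1 encodes FIP200, the scaffold of the ULK1 complex, and stood at 42.1, 40.5 and 43.1 CPM in genipin, 58.3, 53.2 and 50.7 CPM in genipin+NAC, 41.4, 45.0 and 42.3 CPM in NAC, and 44.4, 42.8 and 39.0 CPM in vehicle libraries. All 3 genipin+NAC libraries lay above the other 9, whose ranges overlapped. The rise was 0.36 ± 0.06 against vehicle, 0.36 ± 0.06 against genipin and 0.33 ± 0.06 against NAC (adjusted p = 1.54e-05, 9.11e-06 and 5.24e-05), and the last of these was not called with effective lengths as offsets. Atg13, the regulatory partner of ULK1, was higher than vehicle in all 3 treated groups by similar amounts, at 54.5 ± 1.46 CPM in genipin, 57.2 ± 1.95 CPM in genipin+NAC, 57.0 ± 1.25 CPM in NAC and 46.7 ± 1.92 CPM in vehicle (SD, n = 3 each). The log2 fold changes over vehicle were 0.22 ± 0.04, 0.30 ± 0.04 and 0.29 ± 0.04 in that order.

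Atg9a, the lipid scramblase carried on the vesicles that seed the membrane, was called higher in genipin and in genipin+NAC than in vehicle at 0.16 ± 0.06 and 0.15 ± 0.06, and higher in genipin+NAC than in NAC at 0.20 ± 0.06. The first call was lost without the first vehicle (0.10) or first genipin library (0.11), the second without the first vehicle (0.09) or genipin+NAC library 2 (0.13) or 3 (0.11), and the last without the third genipin+NAC library (0.16). Effective lengths as offsets also ended the first and second calls. A fit of the compared groups alone ended the second, and unscaled totals ended the last. Reads of Atg9a were partly shared with another gene, since its expected counts were not whole in any of the 12 libraries. Ulk2, the relative of ULK1, was called only in genipin against vehicle among the 6 comparisons, at 0.11 ± 0.05 with an adjusted p of 0.0482, and that call was lost in 15 of 21 other settings, 10 of them with a single library left out (0.09 to 0.12). Atg101, which stabilises ATG13, was not called in any of the 6 comparisons and ranged from 15.4 to 20.8 CPM over the 12 libraries.

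In the lipid kinase group the genes moved in different directions. Becn1, the Beclin 1 subunit (ENSMUSG00000035086.13, chromosome 11, 101285952 to 101302286, minus strand), stood at 141, 144 and 138 CPM in genipin, 108, 109.6 and 111 CPM in genipin+NAC, 104, 102 and 99.6 CPM in NAC, and 116, 121 and 118 CPM in vehicle libraries. The genipin libraries were the highest and the NAC libraries the lowest, with no overlap between any pair of the 4 groups. The log2 fold change was 0.25 ± 0.03 in genipin against vehicle, -0.11 ± 0.03 in genipin+NAC against vehicle, -0.22 ± 0.03 in NAC against vehicle and -0.36 ± 0.03 in genipin+NAC against genipin (adjusted p = 6.9e-07, 0.00549, 6.88e-06 and 1.84e-09). The gene overlaps Cntd1 on the opposite strand, and the labels used here do not state how strand entered the counting. With effective lengths as offsets the difference between genipin and vehicle was 0.18 and not called.

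Pik3c3, the catalytic subunit VPS34, was higher than vehicle by 0.18 ± 0.04 in genipin and 0.21 ± 0.04 in genipin+NAC, and was not called in NAC against vehicle. Pik3r4, the subunit VPS15, was called higher in genipin than in vehicle at 0.20 ± 0.05, without overlap between the 2 groups. That call was lost with effective lengths as offsets. Atg14, which directs the complex to autophagosome formation, stood at 12.3, 12.1 and 12 CPM in genipin, 15.5, 16.0 and 13.8 CPM in genipin+NAC, 12.7, 12.5 and 13.1 CPM in NAC, and 13.6, 10.3 and 11.5 CPM in vehicle libraries. Its genipin+NAC libraries were the highest of each comparison, and the rise was 0.35 ± 0.09 against vehicle and 0.31 ± 0.09 against genipin (adjusted p = 0.00165 and 0.0033). The effective length of Atg14 was 2711, 2706 and 2005 bases in genipin+NAC libraries, overlapping 2412, 2238 and 1550.3 bases in vehicle libraries. With lengths as offsets the rises were 0.07 and 0.05 and neither was called.

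Uvrag, a Beclin 1 partner of endosomal trafficking, followed another pattern, at 42.3, 44.7 and 42.9 CPM in genipin, 40.2, 41.3 and 42.8 CPM in genipin+NAC, 63.6, 56.9 and 56.1 CPM in NAC, and 47.4, 48.5 and 47.3 CPM in vehicle libraries. All NAC libraries lay above vehicle, and all genipin and genipin+NAC libraries lay below it. The log2 fold change was 0.30 ± 0.05 in NAC against vehicle and -0.50 ± 0.05 in genipin+NAC against NAC (adjusted p = 1.85e-05 and 2.18e-08). It was smaller in genipin and in genipin+NAC against vehicle, at -0.14 ± 0.05 and -0.20 ± 0.05, and the genipin call was lost in 5 of 21 other settings, among them leaving out vehicle library 2 or genipin library 1 or 3 (-0.13 each).

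Wipi1, a protein that binds the lipid made by VPS34, showed the widest range of any member and the fewest counts, between 41 and 192 per library. Wipi1 (ENSMUSG00000041895.15, chromosome 11, 109573331 to 109611967, minus strand) stood at 1.66, 1.83 and 2.19 CPM in genipin, 3.96, 5.02 and 6.27 CPM in genipin+NAC, 5.47, 5.21 and 5.98 CPM in NAC, and 4.65, 3.38 and 4.07 CPM in vehicle libraries. All genipin libraries were below the other 9, while the genipin+NAC libraries overlapped both NAC and vehicle. The log2 difference was -1.08 ± 0.19 in genipin against vehicle and 1.43 ± 0.18 in genipin+NAC against genipin (adjusted p = 3.34e-05 and 3.83e-07). In NAC against vehicle it was 0.46 ± 0.16 (adjusted p = 0.0164), a call that was lost without the second vehicle library (0.35) or the third NAC library (0.40). Wipi2, the relative that recruits the ATG16L1 complex, moved in the same directions by less, at -0.12 ± 0.04 in genipin, 0.22 ± 0.04 in genipin+NAC and 0.16 ± 0.04 in NAC, each against vehicle. The fall in genipin was not called without the first vehicle (-0.09) or the second genipin library (-0.11), nor without normalization factors. With effective lengths as offsets neither the fall of Wipi2 in genipin nor its rise in NAC was called.

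**Figure D3:**
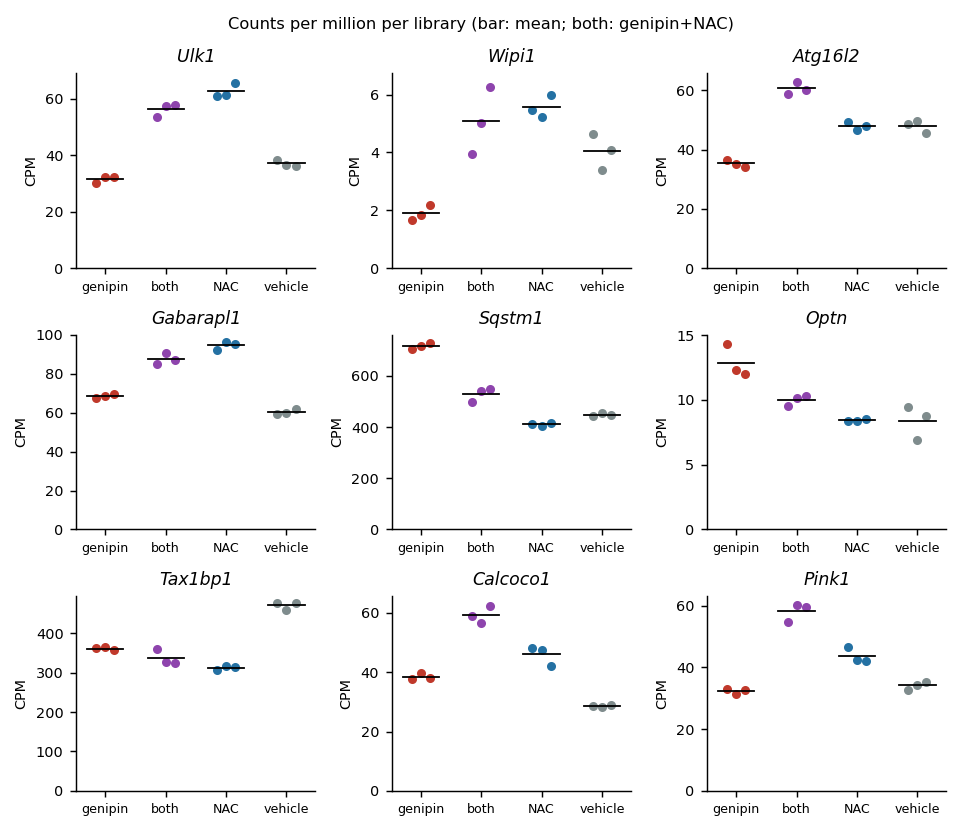
CPM per library for 9 genes, with the groups from left to right as genipin, genipin+NAC (labelled both), NAC and vehicle, a bar for each mean and every axis starting at 0. The 9 are the members called at 1.5-fold or more except Atg10. Sqstm1 and Optn were highest in genipin, Calcoco1, Pink1 and Atg16l2 in genipin+NAC, Ulk1 and Gabarapl1 in NAC, and Tax1bp1 in vehicle.

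No conjugation gene was higher in genipin than in vehicle, against 29.9% of all genes. Lower were 3 of 8 (Atg10, Atg12 and Atg16l2), against 31% of all genes. Of these calls only that of Atg16l2 held under every other setting. Atg16l2, a relative of the ATG16L1 scaffold (ENSMUSG00000047767.17, chromosome 7, 101263034 to 101302251, minus strand), stood at 36.6, 35.3 and 34.1 CPM in genipin, 58.8, 62.9 and 60.2 CPM in genipin+NAC, 49.3, 46.6 and 48.0 CPM in NAC, and 48.8, 49.6 and 45.5 CPM in vehicle libraries. Genipin libraries lay lowest and genipin+NAC libraries highest, with NAC and vehicle overlapping between them. The log2 fold change was -0.44 ± 0.05 in genipin against vehicle, 0.34 ± 0.05 in genipin+NAC against vehicle, 0.78 ± 0.05 in genipin+NAC against genipin and 0.34 ± 0.05 in genipin+NAC against NAC (adjusted p = 8.87e-08, 1.97e-06, 4.2e-12 and 2.41e-06). All 4 calls held under every other setting. The gene overlaps Fchsd2 on the opposite strand.

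Atg12, the ubiquitin-like protein joined to ATG5, stood at 47.8, 44.9 and 46.6 CPM in genipin, 67.9, 62.8 and 69.8 CPM in genipin+NAC, 62.0, 61.6 and 57.7 CPM in NAC, and 49.6, 51.1 and 54.0 CPM in vehicle libraries. The genipin libraries were the lowest and the genipin+NAC libraries the highest, with no overlap between groups. It was higher by 0.37 ± 0.05 in genipin+NAC and by 0.23 ± 0.05 in NAC against vehicle (adjusted p = 8.1e-07 and 0.000365), and its fall in genipin was -0.15 ± 0.05, a call lost without the third vehicle (-0.12) or the second genipin library (-0.13), with effective lengths as offsets (-0.12) and without normalization factors (-0.09). Atg10, the enzyme that transfers ATG12, stood at 4.21, 4.69 and 3.25 CPM in genipin, 6.63, 5.96 and 5.92 CPM in genipin+NAC, 6.49, 5.10 and 5.33 CPM in NAC, and 5.32, 5.05 and 6.25 CPM in vehicle libraries. The genipin libraries lay below the other 9, and the differences were -0.47 ± 0.14 in genipin against vehicle and 0.61 ± 0.14 in genipin+NAC against genipin (adjusted p = 0.00727 and 0.000569), the first of which was lost without the third vehicle (-0.37) or the third genipin library (-0.32) and with effective lengths as offsets (-0.35).

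Atg7, the activating enzyme shared by both ubiquitin-like branches (ENSMUSG00000030314.16, chromosome 6, 114643097 to 114860614, plus strand), went the other way under NAC. It stood at 38.0, 35.6 and 38.7 CPM in genipin, 27.0, 28.0 and 31.3 CPM in genipin+NAC, 25.3, 25.6 and 25.1 CPM in NAC, and 37.2, 38.0 and 38.2 CPM in vehicle libraries. Genipin and vehicle overlapped, and all 6 libraries with NAC lay below them. The change was -0.58 ± 0.06 in NAC against vehicle, -0.39 ± 0.06 in genipin+NAC against vehicle and -0.38 ± 0.06 in genipin+NAC against genipin (adjusted p = 3.34e-08, 6.95e-06 and 7.03e-06), and all 3 calls held under every other setting. Atg3, the enzyme that joins LC3 to lipid, was lower in NAC than in vehicle at -0.21 ± 0.06, and in genipin+NAC than in genipin at -0.16 ± 0.06. The first call was lost without the third vehicle library (-0.14), and the second without genipin library 1 or 3 or genipin+NAC library 3 (-0.15 to -0.13).

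Atg5, the target of ATG12, was lower in genipin+NAC than in genipin at -0.24 ± 0.05 (adjusted p = 0.000122) and than in vehicle at -0.14 ± 0.05, the last of which was lost without the third vehicle (-0.11) or the third genipin+NAC library (-0.13). Atg16l1, the scaffold that places the ATG12 and ATG5 conjugate on the membrane, was called once, in genipin+NAC against NAC at 0.17 ± 0.06, and that call was lost in 5 of 21 other settings, 3 of them with genipin+NAC library 3 or NAC library 1 or 3 left out (0.15 to 0.16). Atg4b, the protease that trims LC3 for conjugation, was not called in any comparison. It averaged 51.4 ± 2.11 CPM in genipin, 50.8 ± 1.11 CPM in genipin+NAC, 53.6 ± 2.51 CPM in NAC and 50.7 ± 3.77 CPM in vehicle (SD, n = 3 each).

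In genipin against vehicle 4 of the 5 LC3 family genes were higher and none was lower, against 29.9% and 31% of all genes. In NAC against vehicle 1 was higher, Gabarapl1, and 3 were lower, Map1lc3b, Gabarap and Gabarapl2, against 29.6% and 30% of all genes. Gabarapl1, a GABARAP relative that acts in autophagosome maturation (ENSMUSG00000030161.8, chromosome 6, 129533160 to 129542346, plus strand), stood at 67.6, 68.5 and 69.6 CPM in genipin, 85, 90.5 and 87.3 CPM in genipin+NAC, 92.4, 96.4 and 95.5 CPM in NAC, and 59.4, 59.8 and 61.9 CPM in vehicle libraries. The 4 groups did not overlap, with NAC highest and vehicle lowest. The log2 fold change over vehicle was 0.18 ± 0.04 in genipin, 0.54 ± 0.04 in genipin+NAC and 0.65 ± 0.04 in NAC (adjusted p = 0.000243, 6.63e-11 and 2.52e-12), and all 3 calls held under every other setting.

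Map1lc3b encodes LC3B, the usual marker protein of autophagosomes, and stood at 126, 129.6 and 131 CPM in genipin, 119.7, 125 and 125 CPM in genipin+NAC, 94.9, 97.4 and 96.0 CPM in NAC, and 121, 119 and 119 CPM in vehicle libraries. NAC libraries lay below all others. The log2 fold change was -0.31 ± 0.03 in NAC against vehicle and 0.36 ± 0.03 in genipin+NAC against NAC (adjusted p = 2.69e-08 and 4.61e-09), while genipin against vehicle gave 0.11 ± 0.03. Gabarapl2, also called GATE-16, had the same order with larger steps, at 74.1, 74.7 and 75.3 CPM in genipin, 69.0, 62.3 and 60.1 CPM in genipin+NAC, 48.8, 50.2 and 49.0 CPM in NAC, and 57.9, 61.6 and 65.4 CPM in vehicle libraries. Genipin libraries were highest, NAC libraries lowest, and genipin+NAC overlapped vehicle. It changed by 0.27 ± 0.05 in genipin and -0.32 ± 0.05 in NAC against vehicle, and by 0.37 ± 0.05 in genipin+NAC against NAC (adjusted p = 5.14e-05, 1.19e-05 and 2.71e-06). Expected counts of Map1lc3b and Gabarapl2 were not whole in any library, so part of their reads was shared with other genes.

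The rise of Map1lc3b in genipin was not called with effective lengths as offsets (0.12). Gabarap itself, the family's most abundant transcript, was lower in NAC than in vehicle at -0.18 ± 0.03 (adjusted p = 5.4e-05) and higher in genipin+NAC than in NAC by 0.30 ± 0.03. Its rise in genipin against vehicle, 0.08 ± 0.03, was lost in 5 of 21 other settings, among them leaving out vehicle library 1 (0.08) or 2 (0.07) or genipin library 3 (0.06). The fall in NAC shrank to -0.06 and was not called without normalization factors. Map1lc3a, encoding LC3A, had only 4.91 to 8.24 CPM, and was called higher in genipin+NAC than in vehicle at 0.33 ± 0.12 and than in genipin at 0.56 ± 0.12. The call against vehicle was lost without the third vehicle or the third genipin+NAC library (0.25 each).

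The make-up of the family's RNA pool differed between groups. Gabarapl1 made up 10.7% ± 0.21 of the family's summed TPM in genipin, 13.6% ± 0.47 in genipin+NAC, 17.4% ± 0.19 in NAC and 10.2% ± 0.05 in vehicle (SD, n = 3 each). Gabarap made up 56.4% ± 0.80 in genipin, 56.3% ± 1.34 in genipin+NAC, 53.5% ± 0.67 in NAC and 57.9% ± 0.40 in vehicle. No Gabarapl1 share in a NAC or genipin+NAC library overlapped those of the vehicle libraries, and Gabarapl2 held 14.0% ± 0.86 in genipin against 12.3% ± 0.53 in vehicle. As shares of expected counts, which do not correct for length, Gabarapl1 held 14.3% in genipin, 17.9% in genipin+NAC, 22.8% in NAC and 13.8% in vehicle, the same order.

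**Figure D4:**
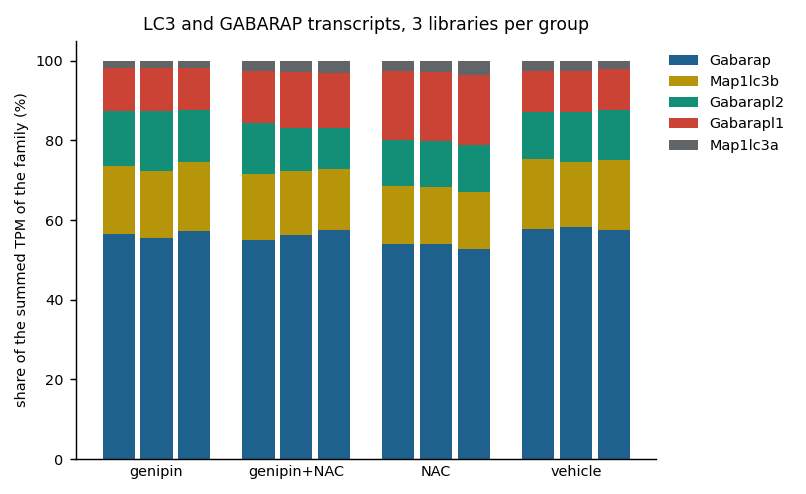
Share of each of the 5 LC3 and GABARAP genes in the family's summed TPM, 1 bar per library, with the groups from left to right as genipin, genipin+NAC, NAC and vehicle. The Gabarapl1 segment took 17.2 to 17.6% in NAC libraries and 10.2 to 10.3% in vehicle libraries.

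Cargo receptors and mitophagy genes made up 5 of the 10 members that passed 1.5-fold in any of the 6 comparisons, namely Sqstm1, Optn, Tax1bp1, Calcoco1 and Pink1. In single comparisons 14.2% to 28.9% of all genes passed that limit, and the share of all genes for any of the 6 was not computed. Sqstm1 binds ubiquitinated cargo and also holds KEAP1, the repressor of the antioxidant factor NRF2 (ENSMUSG00000015837.15, chromosome 11, 50199366 to 50210827, minus strand). It stood at 706, 717 and 729 CPM in genipin, 496, 539 and 551 CPM in genipin+NAC, 414, 406 and 416 CPM in NAC, and 445, 455 and 448 CPM in vehicle libraries. Genipin libraries were highest, genipin+NAC libraries came next and NAC libraries were lowest, with no overlap between groups. Against vehicle the log2 fold change was 0.68 ± 0.03 in genipin and 0.24 ± 0.03 in genipin+NAC, and genipin+NAC stood below genipin at -0.44 ± 0.03 (adjusted p = 1.55e-13, 2.48e-06 and 9.11e-11). The small difference between NAC and vehicle, -0.13 ± 0.03, was -0.01 and not called without normalization factors. The gene overlaps Mrnip on the opposite strand.

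Optn, a receptor for ubiquitinated bacteria and mitochondria (ENSMUSG00000026672.11, chromosome 2, 5020642 to 5064051, minus strand), stood at 14.3, 12.3 and 12 CPM in genipin, 9.56, 10.1 and 10.3 CPM in genipin+NAC, 8.37, 8.35 and 8.53 CPM in NAC, and 9.42, 6.89 and 8.75 CPM in vehicle libraries. Genipin libraries lay above the other 9, and NAC overlapped vehicle. It was higher in genipin than in vehicle by 0.62 ± 0.10 (adjusted p = 1.82e-05) and lower in genipin+NAC than in genipin at -0.36 ± 0.10 (adjusted p = 0.00268). The rise in genipin+NAC against vehicle, 0.26 ± 0.10, was lost without the second vehicle library (0.14) or genipin+NAC library 2 (0.25) or 3 (0.23), while both genipin calls held under every other setting.

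Calcoco1 is a receptor for the endoplasmic reticulum and Golgi (ENSMUSG00000023055.10, chromosome 15, 102706777 to 102722178, minus strand) and rose in every treated group, at 37.7, 39.7 and 38.1 CPM in genipin, 59.0, 56.6 and 62.4 CPM in genipin+NAC, 48.3, 47.7 and 42.2 CPM in NAC, and 28.8, 28.4 and 28.8 CPM in vehicle libraries. The 4 groups did not overlap, with genipin+NAC highest and vehicle lowest. Against vehicle the log2 fold change was 0.43 ± 0.06 in genipin, 1.05 ± 0.06 in genipin+NAC and 0.68 ± 0.06 in NAC (adjusted p = 1.4e-06, 8.3e-13 and 1.08e-09). Genipin gave 0.37 ± 0.05 in the presence of NAC, and the interaction was not called.

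Tax1bp1, a receptor that also restrains inflammatory signalling (ENSMUSG00000004535.12, chromosome 6, 52713729 to 52766780, plus strand), fell in every treated group, at 363, 365 and 357 CPM in genipin, 359, 327 and 325 CPM in genipin+NAC, 308, 318 and 314 CPM in NAC, and 478, 460.2 and 477 CPM in vehicle libraries. Every treated library was below every vehicle library, and NAC libraries were the lowest. Over vehicle its log2 fold change was -0.38 ± 0.03 in genipin, -0.49 ± 0.03 in genipin+NAC and -0.59 ± 0.03 in NAC (adjusted p = 2.79e-09, 8.31e-11 and 3.41e-12), and these 3 calls held under every other setting. Genipin+NAC libraries 2 and 3 lay below the genipin libraries and library 1 lay among them, and the fall of -0.10 ± 0.03 in genipin+NAC against genipin was not called without library 2 (-0.08) or 3 (-0.07). The rise of 0.11 ± 0.03 over NAC rested on the first genipin+NAC library and was 0.06 and not called without it.

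Pink1 is the kinase that marks damaged mitochondria for removal (ENSMUSG00000028756.12, chromosome 4, 138313409 to 138326307, minus strand), and stood at 32.9, 31.4 and 32.8 CPM in genipin, 54.7, 60.3 and 59.6 CPM in genipin+NAC, 46.6, 42.3 and 42.1 CPM in NAC, and 32.7, 34.3 and 35.4 CPM in vehicle libraries. Genipin overlapped vehicle, NAC lay above both and genipin+NAC was highest. Over vehicle the log2 fold change was 0.77 ± 0.05 in genipin+NAC and 0.35 ± 0.05 in NAC (adjusted p = 7.99e-11 and 1.14e-05), and genipin+NAC stood above genipin by 0.85 ± 0.05 and above NAC by 0.42 ± 0.05. Nbr1, a relative of p62 that binds aggregates and peroxisomes, was also highest in genipin+NAC, at 77.7, 74.8 and 77 CPM in genipin, 115, 115 and 112 CPM in genipin+NAC, 104, 99.0 and 99.0 CPM in NAC, and 86.7, 82.6 and 81.7 CPM in vehicle libraries. The groups did not overlap and genipin was lowest. It changed by -0.13 ± 0.04 in genipin, 0.45 ± 0.03 in genipin+NAC and 0.26 ± 0.04 in NAC, each against vehicle (adjusted p = 0.00406, 5.17e-10 and 1.45e-06). The genipin call was lost without normalization factors (-0.06).

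Fundc1, a receptor on the outer mitochondrial membrane that acts in hypoxia, stood at 29.9, 31.7 and 31.8 CPM in genipin, 41.7, 37.3 and 35.6 CPM in genipin+NAC, 35.2, 37.5 and 35.9 CPM in NAC, and 37.1, 35.9 and 37.7 CPM in vehicle libraries. Genipin libraries lay below the other 9, which overlapped one another, and the difference was -0.25 ± 0.06 against vehicle and 0.29 ± 0.06 for genipin+NAC against genipin (adjusted p = 0.00119 and 0.000163). By role, 3 of 7 cargo receptors and mitophagy genes were higher and 3 lower in genipin against vehicle, against 29.9% and 31% of all genes. The counts were 5 and 1 in genipin+NAC against vehicle (28.5% and 28.9% of all genes) and 3 and 2 in NAC against vehicle (29.6% and 30%). They were 4 and 3 in genipin+NAC against genipin (35% and 34.3%), and 6 and 0 in genipin+NAC against NAC (26.6% and 26.5%). One of those 6, Optn at 0.25 ± 0.10, was lost in 13 of 21 other settings, 8 of them with a single library left out (0.22 to 0.26).

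Of the 4 TFEB factors and lysosome membrane genes 3 were higher and none lower in genipin against vehicle, against 29.9% and 31% of all genes. The counts were 0 and 1 in genipin+NAC against vehicle (28.5% and 28.9% of all genes) and 2 and 2 in NAC against vehicle (29.6% and 30%). They were 0 and 3 in genipin+NAC against genipin (35% and 34.3%), and 1 and 1 in genipin+NAC against NAC (26.6% and 26.5%). The 1 lower in genipin+NAC against vehicle was Lamp1, a call lost in 12 of 21 other settings. Tfeb, the factor that switches on lysosome genes, averaged 13.6 ± 0.131 CPM in genipin, 14.6 ± 1.27 CPM in genipin+NAC, 15.5 ± 1.07 CPM in NAC and 13.2 ± 1.08 CPM in vehicle (SD, n = 3 each). Its single call was NAC against vehicle, at 0.23 ± 0.08 (adjusted p = 0.0193), and this was lost without the first vehicle (0.17), first NAC (0.21) or second NAC library (0.17). Tfe3 stood at 25.4, 23.6 and 26.0 CPM in genipin, 21.7, 19.3 and 22.7 CPM in genipin+NAC, 25.4, 22.4 and 25.0 CPM in NAC, and 19.9, 22.6 and 20.7 CPM in vehicle libraries. It was called higher in genipin than in vehicle at 0.25 ± 0.07 (adjusted p = 0.00536), where the libraries did not overlap. It was also called higher in NAC than in vehicle at 0.20 ± 0.07, where they did overlap and where leaving out vehicle library 1 or 3 or NAC library 1 or 3 ended the call (0.16 to 0.19).

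Lamp1, a glycoprotein of the lysosome membrane (ENSMUSG00000031447.7, chromosome 8, 13159161 to 13175338, plus strand), stood at 226, 224 and 232 CPM in genipin, 168, 169 and 167 CPM in genipin+NAC, 167, 165 and 169 CPM in NAC, and 181, 170.1 and 179.7 CPM in vehicle libraries. All genipin libraries lay above the other 9. The rise was 0.36 ± 0.03 in genipin against vehicle, and genipin+NAC stood below genipin at -0.44 ± 0.03 (adjusted p = 1.29e-09 and 3.53e-11). Both calls held under every other setting. The gene overlaps Grtp1 on the opposite strand. The differences from vehicle in genipin+NAC and in NAC, -0.08 ± 0.03 and -0.08 ± 0.03, were each lost in several settings, and the NAC difference was 0.04 without normalization factors. Leaving out single libraries ended the genipin+NAC call for 7 of the 12 (-0.08 to -0.06) and the NAC call for vehicle library 1 or 3 or NAC library 2 (-0.08 to -0.07).

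Lamp2, the membrane receptor of chaperone-mediated autophagy in one of its isoforms, shared the genipin rise and was lower with NAC, at 107, 104 and 103 CPM in genipin, 90.6, 87.5 and 85.4 CPM in genipin+NAC, 76.0, 83.1 and 81.9 CPM in NAC, and 91.1, 92.1 and 95.0 CPM in vehicle libraries. Genipin libraries were highest and NAC libraries lowest. It changed by 0.18 ± 0.04 in genipin and -0.21 ± 0.04 in NAC against vehicle, and by -0.26 ± 0.04 in genipin+NAC against genipin (adjusted p = 0.000407, 9.81e-05 and 4.05e-06). The NAC call was lost without normalization factors (-0.09).

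Whether genipin acted alike with and without NAC was tested by the interaction, computed as genipin+NAC against NAC minus genipin against vehicle. It was called higher for 13 of the 37 genes and lower for 10, against 27.4% and 24% of all genes, and 3 passed 1.5-fold (Wipi1, Atg16l2 and Atg10, all higher), against 20.2% of all genes. Without the first genipin+NAC library 14 were higher and 9 lower, and 2 passed 1.5-fold. Without normalization factors 6 members were higher and 15 lower, and over all genes 2618 were higher and 4806 lower, against 3733 and 3275 with scaling. The median interaction of the 37 genes was 0.05, beside 0.03 over all genes.

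Atg16l2 and Tax1bp1 had the interactions with the smallest adjusted p. For Atg16l2 genipin gave 0.34 ± 0.05 with NAC and -0.44 ± 0.05 without it, an interaction of 0.78 ± 0.07 (adjusted p = 2.84e-09). For Tax1bp1 genipin gave 0.11 ± 0.03 with NAC and -0.38 ± 0.03 without it, an interaction of 0.49 ± 0.05 (adjusted p = 2.22e-08). Wipi1 fell under genipin without NAC, was not called with it, and had an interaction of 0.97 ± 0.24 (adjusted p = 0.00197). The Atg10 interaction, 0.60 ± 0.20 (adjusted p = 0.0135), was lost without the third vehicle (0.50) or the third genipin library (0.45).

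Among the cargo receptors the interaction was higher for Pink1 at 0.50 ± 0.08 and Nbr1 at 0.31 ± 0.05, and lower for Sqstm1 at -0.32 ± 0.05. Sqstm1 still rose with genipin in the presence of NAC, by 0.36 ± 0.03 (adjusted p = 6.29e-09). Lamp1 differed in that genipin+NAC overlapped NAC, and its interaction was -0.35 ± 0.04 (adjusted p = 5.74e-07). For Uvrag the fall with genipin was larger in the presence of NAC, an interaction of -0.36 ± 0.07 (adjusted p = 0.00019), and for Tfe3 the directions were opposite, -0.19 ± 0.07 with NAC and 0.25 ± 0.07 without it (interaction -0.44 ± 0.10, adjusted p = 0.00122). The Tfe3 call with NAC was lost without genipin+NAC library 2 (-0.12) or NAC library 1 (-0.15) or 3 (-0.16), while the interaction held under every other setting.

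Genipin against vehicle and genipin+NAC against NAC share no library. Over the 37 genes their log2 fold changes had the same sign in 21 (Pearson r = 0.25, n = 37 genes), and of 18 genes called in both, 12 went the same way and 6 opposite ways (Atg12, Atg16l2, Gabarapl1, Nbr1, Tax1bp1 and Tfe3). Of these 6, Atg16l2 kept both calls under every other setting and the other 5 each lost a call under at least 1. In genipin+NAC against NAC the call of Gabarapl1 was lost without NAC library 2 (-0.10), and that of Atg12 without genipin+NAC library 3 (0.11) or NAC library 3 (0.12) and without normalization factors (0.07). NAC against vehicle and genipin+NAC against genipin share no library either. Their changes had the same sign in 30 of the 37 genes (r = 0.66), and of 17 called in both, 16 went the same way and 1, Tfe3, opposite ways. Over all 13636 genes the first pair had r = 0.29 with 57.8% of signs alike and the second r = 0.57 with 66.5%. Genes are not independent replicates.

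**Figure D5:**
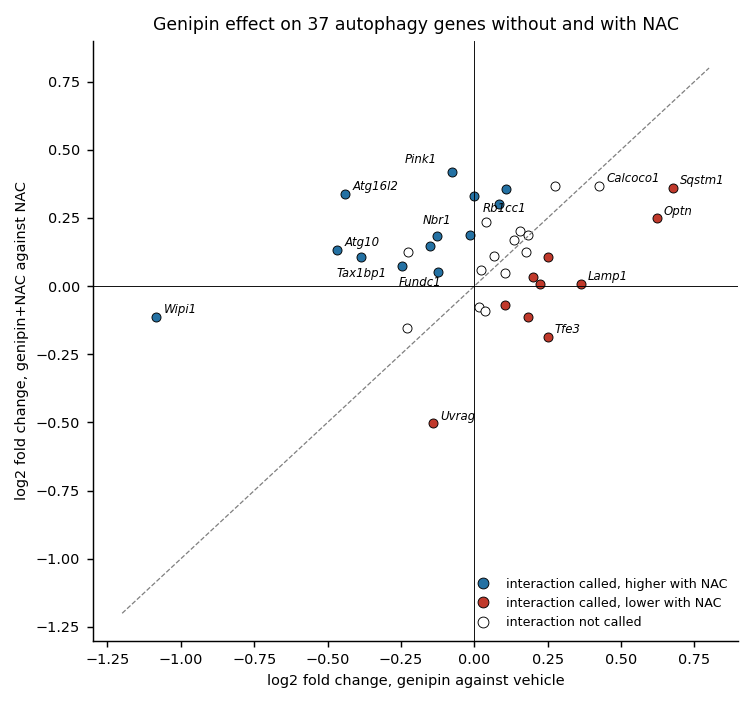
Log2 fold change of each of the 37 genes in genipin+NAC against NAC (vertical axis) over that in genipin against vehicle (horizontal axis), with the dashed line where the 2 are equal. Blue points are genes whose interaction was called higher, red points lower and open points not called. Wipi1 and Atg16l2 lay far above the line at the left, and Sqstm1, Optn and Lamp1 below it at the right.

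Another 91 genes of the pathway were listed beside the members, of which 88 passed the filter on low counts and were tested. Of 14 genes of autophagosome fusion, which tether the autophagosome to the lysosome, 12 were higher and 1 lower in genipin against vehicle (median log2 fold change 0.28), and 6 and 5 in NAC against vehicle. Over all genes 29.9% were higher and 31% lower in genipin, and 29.6% and 30% in NAC. Of 22 lysosome membrane and acid pump genes 11 were higher and 6 lower in genipin (median 0.09), and 4 and 15 in NAC (median -0.17), each against vehicle. In genipin against vehicle 3 of 14 other core autophagy genes were higher and 3 lower. The counts were 5 and 7 for 14 other selective autophagy receptors tested, and 7 and 7 for 24 nutrient-control genes tested. In NAC against vehicle they were 3 and 4, 1 and 7, and 9 and 9 in the same order. Cd63, a tetraspanin of late endosomes, averaged 18.0 CPM in genipin, 9.09 CPM in genipin+NAC, 4.81 CPM in NAC and 3.82 CPM in vehicle, a log2 fold change of 2.23 ± 0.10 in genipin against vehicle (adjusted p = 7.7e-14). Atp6v0a2, a subunit of the proton pump, was higher in genipin and lower in NAC than in vehicle, at 0.47 ± 0.03 and -0.32 ± 0.03.

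Among the other selective autophagy receptors Bnip3 changed most. Bnip3, a hypoxia-inducible receptor on mitochondria, averaged 79.1 CPM in genipin, 534 CPM in genipin+NAC, 145 CPM in NAC and 259 CPM in vehicle libraries. Each compound alone lowered it and the combination raised it: the log2 fold change over vehicle was -1.71 ± 0.04 in genipin, 1.04 ± 0.04 in genipin+NAC and -0.84 ± 0.04 in NAC (adjusted p = 7.15e-19, 1.02e-15 and 6.33e-14). Bnip3l, its relative NIX, had the same directions at -0.44 ± 0.03, 0.23 ± 0.03 and -0.36 ± 0.03 (adjusted p = 4.21e-11, 6.36e-07 and 1.16e-09). None of the 37 members was called lower in both single treatments and higher in the combination, each against vehicle by edgeR.

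Foxo1 and Foxo3, transcription factors that drive several autophagy genes, were higher where NAC was present. Foxo3 averaged 58.7 CPM in genipin, 119 CPM in genipin+NAC, 93.9 CPM in NAC and 62.4 CPM in vehicle, with log2 fold changes of 0.93 ± 0.04 in genipin+NAC and 0.59 ± 0.04 in NAC against vehicle (adjusted p = 1.61e-14 and 4.04e-11). Foxo1 changed by 0.98 ± 0.05 and 0.58 ± 0.05 in the same comparisons. Of the nutrient-control genes Rragd, a GTPase that brings mTORC1 to the lysosome, had few counts, averaging 0.58 CPM in genipin, 2.68 CPM in genipin+NAC, 6.32 CPM in NAC and 2.12 CPM in vehicle. It was lower in genipin at -1.82 ± 0.25 and higher in NAC at 1.59 ± 0.17 than in vehicle (adjusted p = 1.67e-06 and 6.31e-08).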

How the data were processed

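Mouse CD8 T cell RNA was measured in 12 libraries, 3 for each of 4 groups, by paired-end sequencing after depletion of ribosomal RNA, with a strand-marking library kit per the labels' protocols. Bcl2fastq, cutadapt 1.18, STAR 2.7.0f, RSEM 1.3.1 and mm10 are named in the submitters' processing notes, without a role. Per the file headers, the authors' gene tables hold expected counts, TPM and effective lengths. The strand setting of the counting is not given in the sources used here. All 55450 gene IDs and symbols equalled GENCODE mouse release 21, the source of gene coordinates. TPM, as deposited, served to compare genes.

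Deposited expected counts were rounded for edgeR 4.0.16 (R 4.3.3). filterByExpr kept 13636 genes and TMM factors lay between 0.961 and 1.05. A quasi-likelihood model with a mean for each group used every library, and p-values of each contrast were adjusted by Benjamini-Hochberg over all genes kept, with calls at 0.05 and, as a second rule, at a change of 1.5-fold. SE was taken from F, as the size of the log2 difference over its square root. The common biological coefficient of variation was 0.0393, with 8 residual and 12.6 prior degrees of freedom. Library totals set the counting precision, and counting error is only part of the replicate spread. The edgeR fit was tested on simulated counts, in genipin against vehicle alone.

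Members and lists were chosen with earlier results of these data known. The text names all 37 members and, from the other lists, genes called at 1.5-fold or more in at least 1 comparison. Alternatives were RLE size factors, unscaled totals, DESeq2 1.42.0, voom from limma 3.58.1, filtering off or at a mean of 5 CPM, effective-length offsets, fits of the compared groups alone, a block on replicate number, and leaving out every library once. Plots were made in matplotlib 3.10.9 with Python 3.11.15.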

Additional observations from a re-analysis of the deposited data

Results flagged for a closer look

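The effect of genipin differed with and without NAC, by the interaction test at an adjusted p under 0.05 in edgeR's quasi-likelihood fit, in 23 of the 37 members, 13 higher and 10 lower, against 27.4% and 24% of all genes. It passed 1.5-fold in 9 of the 88 other pathway genes tested, against 20.2% of all genes. Values below are log2 fold changes of genipin+NAC against NAC minus those of genipin against vehicle. Groups of 3 libraries are too small for the test of single outlying samples, which needs at least 4.

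The interaction was above 0 in Atg16l2 (0.78), Wipi1 (0.97), Atg10 (0.60), Pink1 (0.50), Tax1bp1 (0.49), Rb1cc1 (0.33), Fundc1 (0.32), Nbr1 (0.31), Atg12 (0.30), Map1lc3b (0.25), Gabarap (0.22), Atg7 (0.20) and Wipi2 (0.18). It was below 0 in Tfe3 (-0.44), Optn (-0.37), Uvrag (-0.36), Lamp1 (-0.35), Sqstm1 (-0.32), Gabarapl1 (-0.30), Atg13 (-0.21), Atg5 (-0.17), Pik3r4 (-0.17) and Becn1 (-0.15). The 12 of these 23 that held under every other setting were Atg13, Uvrag, Wipi1, Atg16l2, Map1lc3b, Gabarapl1, Sqstm1, Nbr1, Tax1bp1, Pink1, Tfe3 and Lamp1. Atg7 was lost in 15 of 20 other settings, Pik3r4 in 12, Atg5 in 10 and Optn in 8.

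Outside the members the interaction was 3.59 in Bnip3, 1.77 in Stbd1, 1.03 in Bnip3l, 0.99 in Deptor, 0.74 in Atg2b, 0.72 in Atg9b, 0.66 in Atg4d, -1.15 in Fnip2 and -1.3 in Cd63. Stbd1, a glycogen-binding receptor, averaged below 1 CPM in every group.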

How the results depend on the processing

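Without normalization factors the members called lower in genipin against vehicle numbered 6, those in NAC against vehicle 19 higher and 5 lower, those lower in genipin+NAC against vehicle 3, those higher in genipin+NAC against NAC 10, and those higher in the interaction 6. Over all genes that setting left 3550 lower in genipin against vehicle and 3456 in genipin+NAC against vehicle, against 4232 and 3935 with scaling. With effective lengths as offsets 17 members were called in genipin against vehicle, 6 of them lower, and in genipin+NAC against NAC 2 were called lower and 1 passed 1.5-fold. Over all genes the offsets gave 3436 higher and 3631 lower in genipin against vehicle, against 4080 and 4232 without them. In genipin+NAC against NAC they gave 2903 and 2969, against 3632 and 3607. Reversed values were Lamp1 in NAC against vehicle without normalization factors (0.035) and Atg14 in NAC against vehicle, which was not called (0.12) and stood at -0.45 with offsets. Leaving out each library in turn left 2 to 4 members lower in genipin+NAC against NAC, the 2 without the third NAC library, and moved no other count of members by over 1.5 times. RLE size factors, DESeq2, limma-voom, both filters and the fit of only the groups compared moved no count of members by over 1.5 times. Leaving out the normalization factors shifts every fold change of a comparison alike. Offsets add the spread of the estimated lengths and also move the fold changes themselves where lengths differed between groups. For Atg14 the mean length in NAC lay 0.53 log2 units above that in vehicle, and its log2 fold change went from 0.12 to -0.45. The fit with a replicate block called 25 members in genipin against vehicle, 22 in NAC against vehicle and 21 in the interaction. No pairing by replicate number showed in the counts: after removal of group means the 18 same-numbered pairs correlated between -0.0751 and 0.0437. A shared mouse or culture that left little mark on the RNA would not show in this check. Averaged by replicate number over the other groups, correlations were highest for a library's own number in only 4 of the 12. The block ended the calls of Ulk2 in genipin against vehicle and of Pik3r4 and Atg7 in the interaction, and no other. By CPM in place of TPM the highest mean lay in genipin+NAC for 14 members, in NAC for 6 and in vehicle for 2, against 8, 11 and 1 by TPM. As shares of expected counts Gabarap held 42.2% in genipin, 42.4% in genipin+NAC, 40.6% in NAC and 43.5% in vehicle, and Gabarapl1 14.3%, 17.9%, 22.8% and 13.8%, since counts do not correct for length. Depth limits low genes such as Wipi1, which fell under the filter at a mean of 5 CPM.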

Other observations

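Effective length, which moves when the mix of a gene's transcripts is estimated differently, stood apart from vehicle in some members. In Atg14 it was 2909, 3223 and 2830 bases in NAC libraries, 0.53 log2 units above the vehicle mean and without overlap. In Atg16l2 it was 1446, 1491 and 1567 bases in genipin+NAC libraries, 0.20 log2 units below the vehicle mean and again without overlap. In Becn1 it was 1582, 1552 and 1905 bases in NAC libraries, 0.15 log2 units above the vehicle mean without overlap. These are estimates per gene from the deposited tables, and no test was run on them.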
